A study of Mus musculus with 22 samples.

Results

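The genes described here encode the giant protocadherins Fat1, Fat2, Fat3 and Fat4, their partner Dchs1, the Golgi kinase Fjx1, and the classical cadherins Cdh2, Cdh4, Cdh6 and Cdh11. These 10 genes were chosen by name among the 26202 gene symbols of the count table, and all 10 were found in it. RNA was sequenced from whole mouse trachea on embryonic day E11.5 and from cells sorted from the trachea on day E13.5, and each sample pooled 5 tracheas. Levels are given as CPM, the counts of a gene per 1000000 counts of its library after TMM scaling of the library size, for single libraries or as mean ± SD.

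At E11.5, 5 control libraries (Wnt5a f/f) were set against 4 mutant libraries (Dermo1Cre; Wnt5a f/f), in which a Cre recombinase of the mesenchyme acts on the same floxed alleles and leaves those of other cells. At E13.5 all groups carried the smooth muscle reporter gamma SMA eGFP. Control cells were sorted as epithelium (stained for EpCAM, n = 2), muscle (GFP positive, n = 2) and chondroblasts (negative for both, n = 2), and chondroblasts were also sorted from Notum 150/150 embryos, which carry a loss-of-function allele of the Wnt deacylase Notum (n = 3). In 2 of the 3 mutant column names the same number appears, and no source says what it marks. The labels list 3 samples of each sorted control population and 4 of Notum mutants, more than the libraries that could be matched. They give the genotype of sorted controls as Bmp4 f/f or as Notum 300/300, and the columns of the table do not say which. The double negative gate is defined by what the cells lack, so it can hold any cell without EpCAM and GFP.

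Fat and Dachsous proteins are very large cadherins that bind each other across the boundary between neighbouring cells. Fjx1 belongs to the family of the fly kinase Four-jointed, which phosphorylates their cadherin repeats in the Golgi, and the system is known for planar cell polarity and for growth control through the Hippo pathway. Classical cadherins bind their like on the next cell and are tied to actin through catenins, and Cdh2 (N-cadherin) and Cdh11 (OB-cadherin) are known from condensing mesenchyme, the cell aggregates in which cartilage forms.

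Libraries held 6880660 to 21678177 counts, so that 3 counts, taken as the floor, correspond to 0.138 to 0.436 CPM. Wnt5a was at 57.7 to 162 CPM in E11.5 controls and 46.5 to 127 CPM in Wnt5a mutants, and Notum at 13.8 and 86.1 CPM in control chondroblasts and 13.9 to 35.6 CPM in Notum mutants, so the level of neither gene separated its groups. Summed markers followed the sort. The 6 epithelium markers reached 3265 to 3884 CPM in epithelium and 16.8 to 45.4 CPM in the other sorted libraries. The 6 smooth muscle markers reached 10573 to 13675 CPM in muscle and at most 97.9 CPM in the other sorted libraries, and the 9 chondroblast markers reached 2755 to 4843 CPM in chondroblasts, 828 to 2172 CPM in muscle and 383 to 438 CPM in epithelium. Among the columns used, names of sorted cells carry 1 of 2 dates. Each control population has a library of the earlier and of the later date, and all Notum mutants used have the later date. The name of the earlier epithelial column lacks the minus sign after GFP that the later one has, so the name alone does not mark this library as GFP negative. Fold changes without this library are also given for Fat1 and Fat4. For Dchs1 and Cdh11 the difference within the later date, which does not use it, is given for chondroblasts. The labels do not say whether samples of a group came from separate litters, and p-values cover the spread between these libraries.

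**Figure D1:**
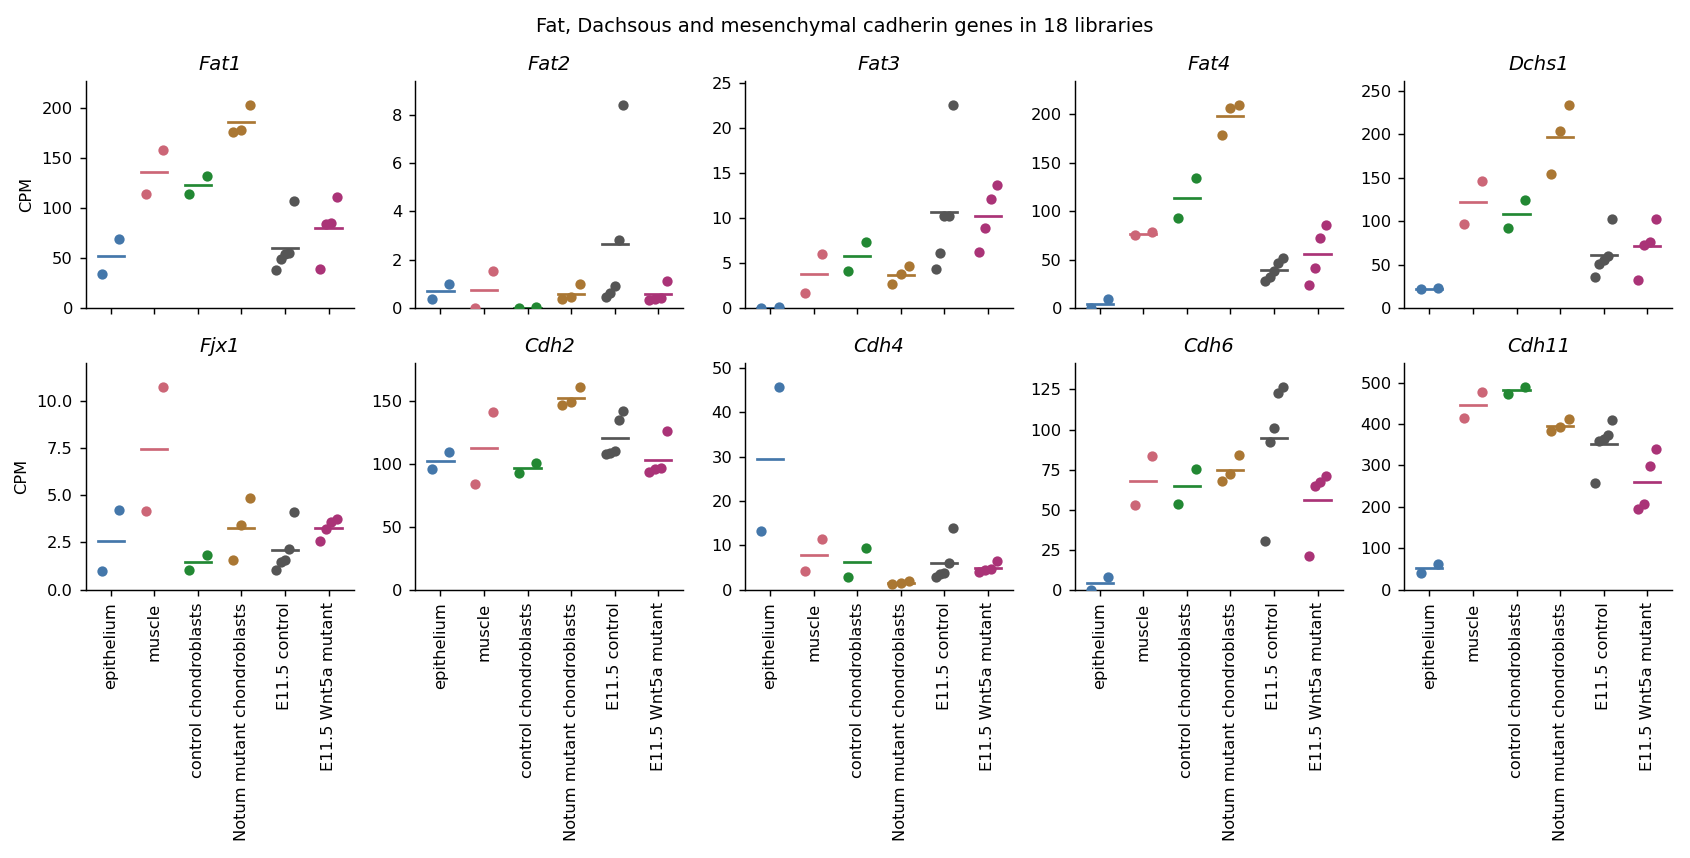
CPM of the 10 genes in 18 libraries, on a linear axis from 0 in each panel, with 1 point for each library and a line at each group mean. Fat3, Fat4, Cdh6 and Cdh11 sit near the bottom of their panels in epithelium, while Cdh2 lies between 84.5 and 161 CPM in every library.

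Set against exon length, Cdh11 was the most abundant of the 10 genes in every group except epithelium. In control chondroblasts the level per kb of exon was 85.3 ± 2.03 CPM for Cdh11 (SD, n = 2), and Cdh2 came next. Dchs1 (10.1 ± 2.08 CPM per kb), Fat1 (8.30 ± 0.86), Cdh6 (7.90 ± 1.91) and Fat4 (7.04 ± 1.77) followed, and these neighbours in the order lay within each other's spread. Cdh4, Fjx1 and Fat3 lay under 1 CPM per kb in this group. In epithelium Cdh2 led with 21.2 ± 1.94 CPM per kb, ahead of Cdh11 with 9.15 ± 2.87 and Cdh4 with 4.63 ± 3.59 (SD, n = 2), and the last of these overlapped in spread with Cdh11 and with Fat1 at 3.49 ± 1.66. In muscle the order was that of chondroblasts down to Cdh6, with Cdh11 at 79.0 ± 7.85 and Cdh2 at 23.4 ± 8.35 CPM per kb. At E11.5 Cdh6 stood in the next place after Cdh11 and Cdh2, with 11.6 ± 4.72 CPM per kb in control tracheas, overlapping in spread with the 5.69 ± 2.30 of Dchs1 (SD, n = 5). Exon lengths are those of the longest coding transcript, from 3.13 kb for Fjx1, a gene of 1 exon, to 18.8 kb for Fat3.

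**Figure D2:**
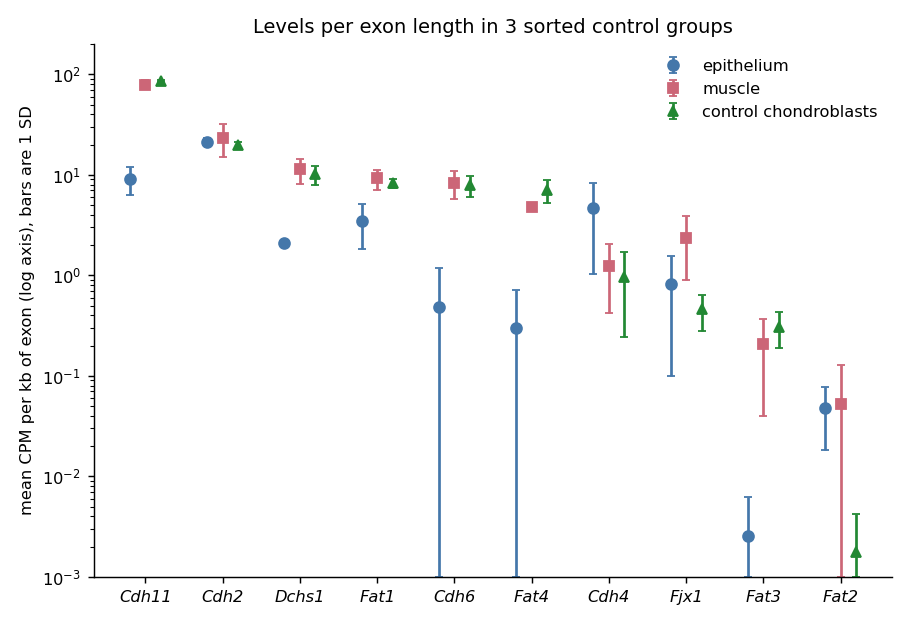
Mean CPM per kb of exon (log axis) in epithelium, muscle and control chondroblasts, with bars of 1 SD over 2 libraries; a bar that meets the lower axis ends at or below it. Cdh11 and Cdh2 lead in muscle and chondroblasts, Cdh2 has nearly the same level in all 3 populations, and Cdh6, Fat4 and Fat3 lie far below their mesenchymal levels in epithelium.

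In the GENCODE vM21 annotation of GRCm38, the build named in the submitters' notes as mm10, Fat1 lies at chr8:44935447-45052257, Fat2 at chr11:55250609-55336564, Fat3 at chr9:15910189-16501285, Fat4 at chr3:38886940-39011985, Dchs1 at chr7:105752990-105787654, Fjx1 at chr2:102449366-102452499, Cdh4 at chr2:179442431-179899373, Cdh6 at chr15:13028701-13173675 and Cdh11 at chr8:102632095-102785642. Exons of Fat1, Fat4 and Dchs1 overlap transcripts of the other strand (Gm2366 over 487 bases, C230034O21Rik over 1209 and Gm43539 over 281, and Gm15645 over 648). The library kit does not mark strand, so reads of these stretches cannot be told apart.

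RefSeq promoter windows were at hand for 5 of the 10 genes (GRCm38.p6). The 250 bases before the start are shown for Fat3, Fat4 and Cdh6, the 3 genes with 0 to 2 counts in the later epithelial library and counts in every mesenchymal library. Each is written 5′ to 3′ on the strand of its gene, with every CG pair in capitals. The Fat3 window lies at chr9:16502055-16502304 (minus strand) and the Cdh6 window at chr15:13173676-13173925 (minus strand), both outside annotated genes, and the Fat4 window at chr3:38886690-38886939 (plus strand), inside the antisense gene C230034O21Rik.
Fat3: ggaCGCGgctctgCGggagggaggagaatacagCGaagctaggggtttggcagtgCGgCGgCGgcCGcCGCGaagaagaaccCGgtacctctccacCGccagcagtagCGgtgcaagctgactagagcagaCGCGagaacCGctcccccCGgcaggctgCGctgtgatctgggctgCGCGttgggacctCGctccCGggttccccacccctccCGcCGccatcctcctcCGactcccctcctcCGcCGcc
Fat4: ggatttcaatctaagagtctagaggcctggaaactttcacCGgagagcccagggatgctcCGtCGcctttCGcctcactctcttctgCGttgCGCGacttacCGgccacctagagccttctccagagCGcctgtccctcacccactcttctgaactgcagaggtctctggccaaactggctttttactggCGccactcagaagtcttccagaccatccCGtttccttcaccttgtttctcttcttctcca
Cdh6: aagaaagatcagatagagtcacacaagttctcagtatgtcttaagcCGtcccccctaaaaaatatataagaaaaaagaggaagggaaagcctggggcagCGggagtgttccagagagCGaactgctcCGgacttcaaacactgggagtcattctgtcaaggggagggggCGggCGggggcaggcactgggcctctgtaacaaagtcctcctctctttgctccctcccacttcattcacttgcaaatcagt
The 3 windows differ in composition. Fat3 has 27 CG pairs and 70.4% G or C, Fat4 has 11 and 54.8%, and Cdh6 has 6 and 51.2%, where the median of all 32851 windows is 6 pairs and 52.4%. Searched on both strands, the TCF-type motif CTTTGAT was in none of the 5 windows and in 3.21% of all windows. The Sox-type motif CTTTGTT was in that of Cdh6 and in 5.03% of all, the TEAD-type motif GGAATG in those of Fat1 and Fat2 and in 12.6% of all, and the E-box CACCTG in that of Fat1 and in 17.2% of all. The Fat1 window (chr8:44949958-44950207) and the Fat2 window (chr11:55312258-55312507) lie inside their own genes, away from the ends of the spans given above. A match is a match of letters, and no factor binding was measured.

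To ask how these genes divide between the tissues of the trachea, chondroblasts and muscle were each compared with epithelium at E13.5. Dchs1 and Cdh11 were higher in both mesenchymal populations. Fat1, Fat3, Fat4 and Cdh6 were also above epithelium in every mesenchymal library but did not pass the adjusted test, Cdh2 was at a like level in all 3 populations, and Cdh4 had its highest mean in epithelium. In these bulk libraries fewer cells of a type and less RNA per cell cannot be told apart.

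Among the receptors, Fat4, the main Dchs1 partner of mammals, was at 134 and 93.3 CPM in control chondroblasts, at 74.9 and 78.6 CPM in muscle and at 9.48 and 0.131 CPM in epithelium (earlier and later date, as in the values that follow). The epithelial libraries were both far below the mesenchymal ones but also far apart from each other. Fat4 was 22.7-fold higher in chondroblasts than in epithelium (log2 fold change 4.51, SE 1.37, adjusted p = 0.174, edgeR) and 15.6-fold higher in muscle (3.96, SE 1.34, adjusted p = 0.19). Leaving out an epithelial library leaves 1, which has no measure of its own spread, so only effect sizes are given. In chondroblasts the log2 fold change in edgeR was 3.54 without the later library and 9.67 without the earlier one.

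Fat1, the most abundant Fat gene of epithelium, was at 114 and 132 CPM in chondroblasts, 114 and 158 CPM in muscle and 69.1 and 34.3 CPM in epithelium. It was 2.33-fold higher in chondroblasts than in epithelium (log2 1.22, SE 0.38, unadjusted p = 0.0173, adjusted p = 0.187, edgeR) and 2.61-fold higher in muscle (log2 1.39, SE 0.39, adjusted p = 0.123). Without the earlier epithelial library, which leaves 1, the log2 fold changes in edgeR were 1.84 and 2.00. Fat3, a Fat gene best known from neurons and retina, was far lower, at 4.19 and 7.40 CPM in chondroblasts, 1.66 and 6.06 CPM in muscle and 0.0958 and 0 CPM in epithelium. With 2 counts of Fat3 in the epithelial libraries together, against 181 in chondroblasts and 124 in muscle, the ratio of CPM was 99.3 (95% exact interval of counting error 27.1 to 826) for chondroblasts and 68.5 (18.6 to 572) for muscle. Its adjusted p was 0.166 and 0.169 in edgeR. Fat2 stayed at or under 1.54 CPM in all sorted libraries and did not pass the filter on low values in any comparison.

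Dchs1, the ligand and partner of Fat4, was at 124 and 92.5 CPM in chondroblasts and 97.4 and 146 CPM in muscle, against 21.9 and 22.8 CPM in epithelium. Unlike Fat4 it was close to the same level in both epithelial libraries. The difference was 4.76-fold in chondroblasts (log2 2.25, SE 0.31, adjusted p = 0.0226, edgeR) and 5.41-fold in muscle (log2 2.44, SE 0.31, adjusted p = 0.0146). Without the earlier and without the later chondroblast library the adjusted p for chondroblasts was 0.124 and 0.0957, and it was 0.0755 without the later epithelial library. For muscle it was 0.0714 without the later muscle library and 0.0509 without the later epithelial one. Fjx1 was low and uneven, at 1.84 and 1.05 CPM in chondroblasts, 4.15 and 10.7 CPM in muscle and 4.22 and 0.981 CPM in epithelium, and its groups overlapped between epithelium and either mesenchymal population.

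Cdh11, a type II cadherin of mesenchyme and bone-forming cells, was at 474 and 489.7 CPM in chondroblasts and 415 and 478 CPM in muscle, against 63.1 and 40.2 CPM in epithelium. All 4 mesenchymal libraries lay far above both epithelial ones. Cdh11 was 9.15-fold higher in chondroblasts (log2 3.19, SE 0.27, adjusted p = 0.00751, edgeR) and 8.59-fold higher in muscle (log2 3.10, SE 0.27, adjusted p = 0.00502). For chondroblasts the adjusted p was 0.0595 without the earlier chondroblast library and 0.0527 without the later one. Cdh6, the other type II cadherin, was at 53.4 and 75.6 CPM in chondroblasts, 52.9 and 83.4 CPM in muscle and 7.95 and 0 CPM in epithelium. A count of 0 in the later epithelial library allows up to 0.192 CPM, and the earlier one held 166 counts. The log2 fold change of Cdh6 was 3.97 in chondroblasts (SE 1.58, unadjusted p = 0.0428, adjusted p = 0.282, edgeR) and 4.06 in muscle (SE 1.58, adjusted p = 0.247). Without the earlier epithelial library only the later one is left. It has a count of 0 and no measure of its own spread, so no fold change or test is given from that fit.

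Cdh2, the type I cadherin of mesenchyme and muscle, was at 101 and 92.7 CPM in chondroblasts, 142 and 84.5 CPM in muscle and 109 and 96.1 CPM in epithelium. Its groups overlapped, and the log2 fold change against epithelium was -0.11 in chondroblasts (95% interval -0.83 to 0.61) and 0.13 in muscle (-0.59 to 0.86). Cdh4, the type I R-cadherin, was at 13.4 and 45.8 CPM in epithelium, above the 2.91 and 9.49 CPM of chondroblasts and the 11.6 and 4.23 CPM of muscle. The log2 fold change of -2.27 (SE 1.06, adjusted p = 0.365, edgeR) in chondroblasts and -1.90 (SE 1.04, adjusted p = 0.398) in muscle did not pass, and the 2 epithelial libraries lay far apart. The muscle libraries differed in summed skeletal muscle markers, with 734 CPM in the earlier one, which had the higher Cdh2 and Cdh4, and 40.1 CPM in the later one, and the part of such cells was not tested.

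**Figure D3:**
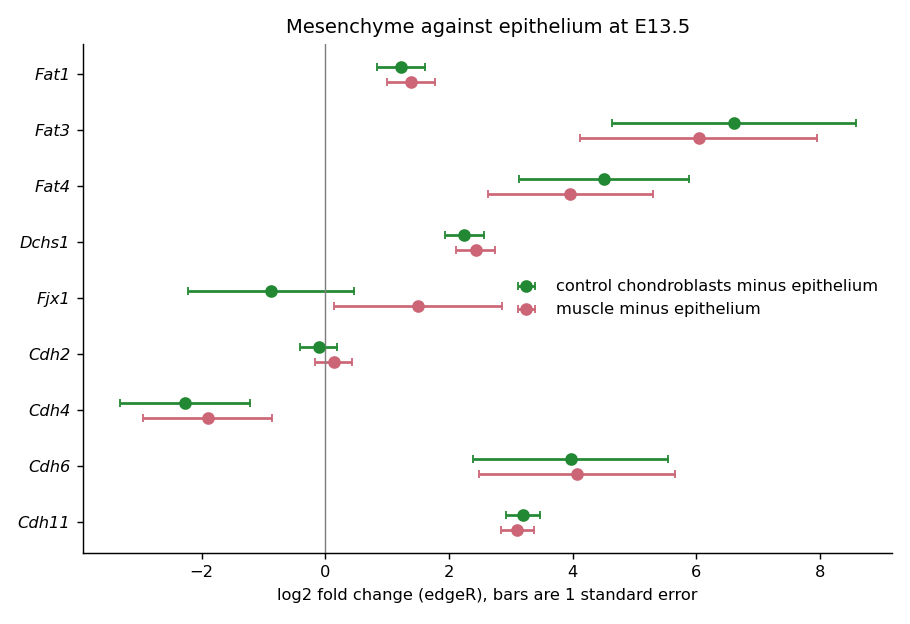
log2 fold change of the 9 genes that passed the filter, chondroblasts and muscle each minus epithelium, with bars of 1 standard error from edgeR. Dchs1 and Cdh11 combine large changes with short bars, Fat3, Fat4 and Cdh6 have larger estimates with long bars, and Cdh2 sits at 0.

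In counts, 9 of the 10 genes passed the filter. Against epithelium, 2 of 9 passed an adjusted p of 0.05 in chondroblasts, where 2.74% of all genes tested did, and 2 of 9 in muscle, where 3.58% did. By the p and fold thresholds of the study (unadjusted p under 0.05 and fold change over 1.5, called the study thresholds here), 6 of 9 passed in each, all higher in mesenchyme, against 15.8% and 17.6% of all genes. The libraries did not overlap for 7 of 9 genes in each comparison, against 52.3% and 51.9% of all genes. Fat3, Fat4, Fjx1 and Cdh6 passed the filter only through the mesenchymal groups, so these counts are no support for a direction, and both comparisons share the epithelial libraries. The study also asked for an FPKM above 1, which was not applied, and the mean of Fat3 was under 1 CPM per kb in every group. Without the earlier epithelial library 1 is left, with no measure of its own spread, so calls from that fit are not listed here. Within the earlier and the later date, chondroblasts exceeded epithelium by 2.49 and 2.01 log2 units for Dchs1, 2.91 and 3.60 for Cdh11 and 0.72 and 1.94 for Fat1. Under DESeq2 5 of 9 genes passed the adjusted threshold in each comparison, as did 11.4% and 13.3% of all genes. In the earlier epithelial library, with the higher Fat4 and Cdh6, the 4 macrophage markers summed to 151 CPM against 1.11 CPM in the later one, while the chondroblast and smooth muscle markers were lower in it (383 against 438 CPM for chondroblast markers), and the part of other cells in the difference was not tested.

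Chondroblasts and muscle were next compared with each other. None of the 9 genes passed either rule, where 0.132% and 5.47% of all genes did (792 of 13687 at an unadjusted p under 0.05 and none of the 9), and DESeq2 and limma called none of the 9 either. The interval of the difference was narrow for Cdh11 (log2 0.09, 95% interval -0.50 to 0.69) and Dchs1 (-0.19, -0.90 to 0.53), and wide for Fat3 (0.57, -3.06 to 4.20) and Cdh6 (-0.10, -3.44 to 3.25). Libraries did not overlap for 2 of 9 genes, against 40.3% of all genes. These were Fat4, higher in chondroblasts, and Fjx1, whose 1.84 and 1.05 CPM in chondroblasts lay below the 4.15 and 10.7 CPM of muscle (log2 -2.38, SE 1.40, unadjusted p = 0.137, edgeR). Summed chondroblast markers were at 828 CPM in the earlier and 2172 CPM in the later muscle library, against 3240 and 2755 CPM in chondroblasts. The part of such cells in this comparison was not tested.

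Loss of Notum was examined in chondroblasts at E13.5. Fat1, Fat4, Dchs1 and Cdh2 were higher and Cdh4 and Cdh11 lower in all 3 mutants than in both controls, and no gene of the whole table passed the adjusted test. The control libraries are those of the comparisons above.

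Fat4 was at 206, 209 and 178 CPM in the mutants against 134 and 93.3 CPM in the controls. Dchs1 was at 204, 233 and 154 CPM against 124 and 92.5 CPM. Both partners were thus above the controls in every mutant, by 1.76-fold for Fat4 (log2 0.81, SE 0.17, unadjusted p = 0.00286, adjusted p = 0.243, edgeR) and by 1.83-fold for Dchs1 (log2 0.88, SE 0.21, unadjusted p = 0.00563, adjusted p = 0.264). Fat1 was at 178, 202 and 175 CPM against 114 and 132 CPM, a 1.52-fold difference (log2 0.60, SE 0.13, adjusted p = 0.256, edgeR). Fat3, with 3.85, 2.70 and 4.69 CPM against 4.19 and 7.40 CPM, overlapped between the groups, as did Fjx1 with 3.43, 4.86 and 1.58 CPM against 1.84 and 1.05 CPM. Fat2 had 0.371 to 0.982 CPM in the mutants and 1 and 0 counts in the controls, and was not tested.

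Cdh2 was at 147, 149 and 161 CPM in the mutants against 101 and 92.7 CPM in the controls. The difference was 1.59-fold (log2 0.67, SE 0.11, unadjusted p = 0.000948, adjusted p = 0.2, edgeR). Cdh11 was lower, with 384, 411 and 392 CPM in the mutants against 474 and 489.7 CPM in the controls (log2 -0.27, SE 0.09, unadjusted p = 0.0248, adjusted p = 0.337, edgeR). Cdh4 was at 2.00, 1.28 and 1.48 CPM against 2.91 and 9.49 CPM, with the controls far apart (log2 -1.96, SE 0.69, adjusted p = 0.347, edgeR). Cdh6 overlapped, with 67.9, 84.1 and 72.5 CPM against 53.4 and 75.6 CPM.

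**Figure D4:**
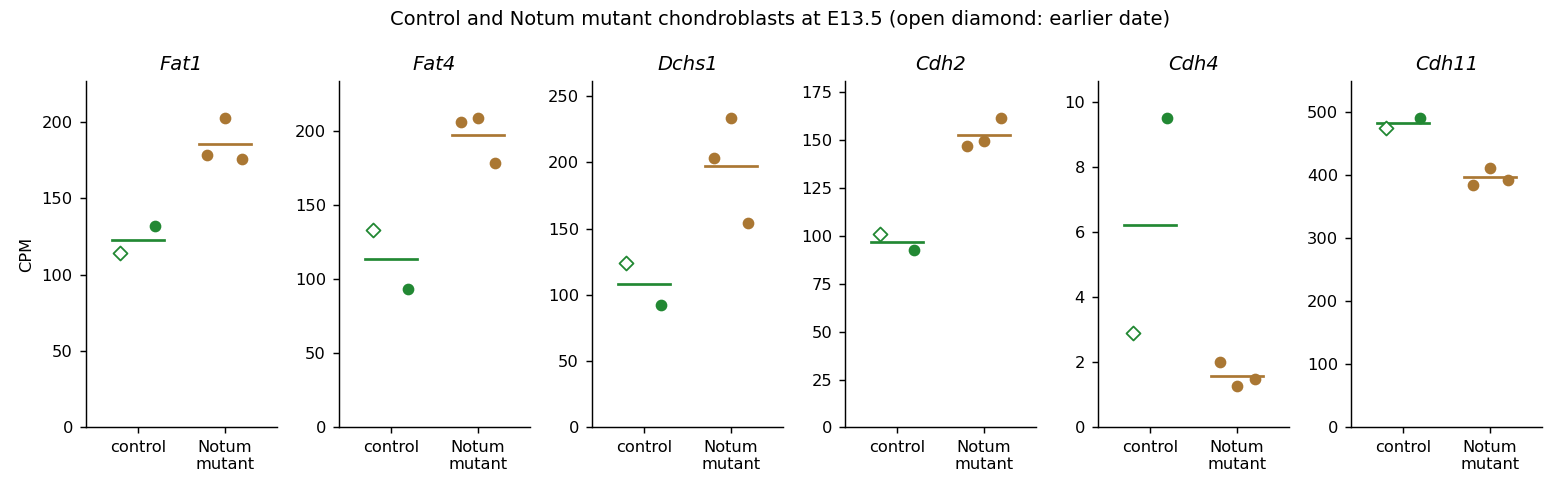
CPM of 6 genes in control (2 libraries) and Notum mutant chondroblasts (3 libraries), on linear axes from 0, with a line at each mean and an open diamond for the earlier date. Mutant points lie above both controls for Fat1, Fat4, Dchs1 and Cdh2, and below both for Cdh4 and Cdh11.

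Past the study thresholds were 5 of 9 genes, 4 higher (Fat1, Fat4, Dchs1, Cdh2) and 1 lower (Cdh4, whose mean was under 1 CPM per kb in both groups), against 8.41% of all genes. Libraries did not overlap for 6 of 9, against 33.6% of all genes. At an adjusted p of 0.05 edgeR called 0 of 9 and 0% of all genes, while 1762 of 14120 genes had an unadjusted p under 0.05. DESeq2 called Fat1, Fat4, Dchs1 and Cdh2 (adjusted p = 0.0094, 0.0026, 0.0087 and 0.0002) among 526 genes, 3.73% of those tested. The median log2 fold change was 0.60 over the 9 genes and 0.02 over all.

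The mutants used all have the later date, so the earlier control shares no date with them. Against the later control alone, the difference of the mean mutant was log2 1.08 for Fat4, 1.07 for Dchs1, 0.72 for Cdh2, 0.49 for Fat1 -0.31 for Cdh11 and -2.52 for Cdh4. Against the earlier control it was 0.56, 0.65, 0.59, 0.70, -0.26 and -0.86. These genes were picked because the mutants lie on 1 side of both controls, which fixes the signs. With a date term, which leaves 1 control to compare with, edgeR called Fat4, Dchs1, Cdh2 and Cdh4, while 18.4% of all genes were called (adjusted p = 0.0097, 0.0276, 0.0206 and 0.0202), and 1 control carries no measure of its own spread. The earlier control also held 65910 CPM of the 6 erythroid markers, against 5357 CPM in the later control and 6176 to 8332 CPM in the mutants. Summed macrophage markers were higher in the mutants, at 184 to 303 CPM against 87.4 and 143 CPM, as were chondroblast markers, at 3765 to 4843 CPM against 2755 and 3240 CPM. Smooth muscle (69.3 to 97.9 against 55.3 and 59.7 CPM), heart muscle (15.7 to 79.3 against 4.85 and 9.42 CPM) and neural markers (220.2 to 289 against 147 and 211 CPM) were also higher and epithelium markers lower (16.8 to 25.6 against 31.9 and 32.7 CPM), and their part in these differences was not tested.

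Whole tracheas at E11.5 were compared to ask how loss of mesenchymal Wnt5a bears on the same genes. None of the 9 genes passed either rule in the main, unpaired fit or separated the groups, but Cdh2, Cdh6 and Cdh11 had lower means in the mutants. Column names carry a number that 4 controls share with the 4 mutants, and these 3 of the 9 genes were lower in the mutant of every such pair, as were 5.78% of all genes tested. The 3 were singled out after their values were seen.

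Cdh11 was at 365, 409, 359.8, 374 and 258 CPM in the controls (A to E, as in the values that follow), and the mutants (A to D) had 208, 194, 299 and 341 CPM. The lowest control fell among the mutants. The log2 fold change was -0.47 (SE 0.19, unadjusted p = 0.0303, adjusted p = 1.00, edgeR), which is a 1.38-fold lower level. Cdh6 was at 127, 30.6, 101, 92.5 and 123 CPM in controls and 71.3, 64.4, 66.9 and 20.9 CPM in mutants. Control B and mutant D, which share a column number, were the lowest of their groups. The log2 fold change was -0.80 (SE 0.43, unadjusted p = 0.0873, edgeR), and Cdh2, at 135, 108, 142, 111 and 108 CPM in controls and 93.4, 96.5, 126 and 97.01 CPM in mutants, had a log2 fold change of -0.26 (95% interval -0.58 to 0.06).

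Within pairs of the same number, the mutant minus control difference in log2 CPM was -0.91, -0.27, -0.27 and -0.85 for Cdh11, -0.97, -0.54, -0.59 and -0.38 for Cdh6, and -0.48, -0.15, -0.17 and -0.24 for Cdh2. With the number as a replicate block, Cdh6 passed the study thresholds (log2 -0.63, SE 0.15, unadjusted p = 0.0022, adjusted p = 0.599, edgeR), and 1 of 9 genes passed against 2.82% of all. Cdh11 had a log2 fold change of -0.58 in that fit (unadjusted p = 0.006, adjusted p = 0.713, edgeR).

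**Figure D5:**
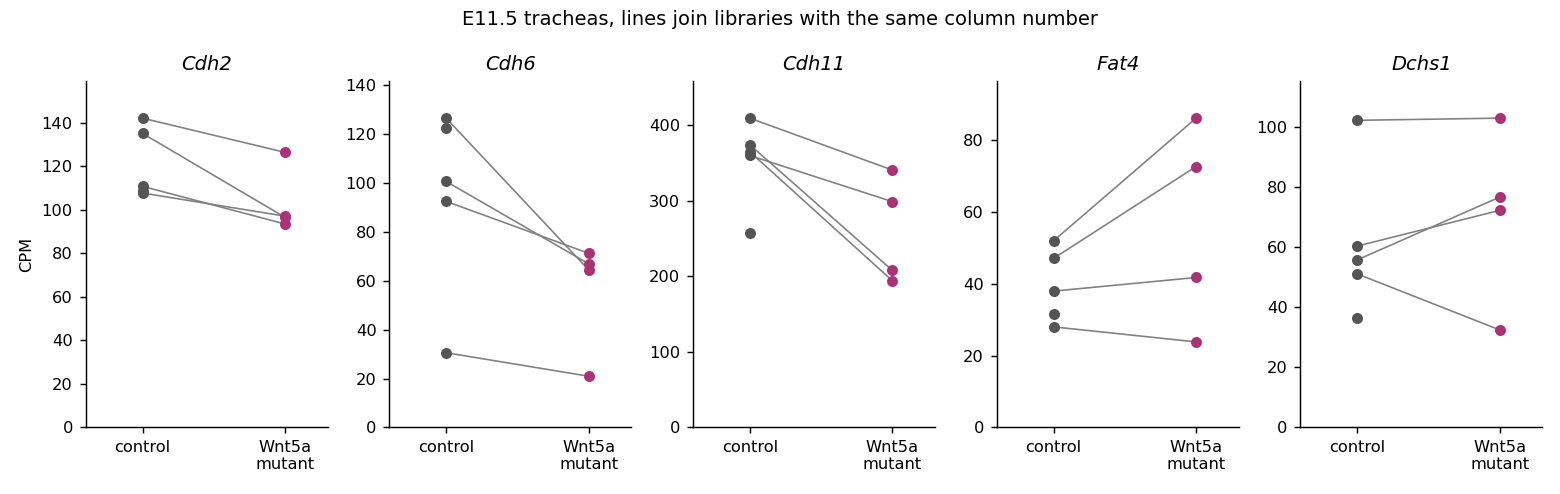
CPM in E11.5 control (5 libraries) and Wnt5a mutant tracheas (4 libraries) on linear axes from 0, with lines between libraries of the same column number. All lines fall for Cdh2, Cdh6 and Cdh11, and lines of Fat4 and Dchs1 run in both directions.

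The Fat and Dachsous genes varied within both groups. Fat1 ranged from 37.6 to 107 CPM in controls and 38.6 to 111 CPM in mutants, Fat4 from 28.0 to 51.9 and 23.8 to 86.1 CPM, and Dchs1 from 36.3 to 102 and 32.5 to 103 CPM. Control B and mutant D, of the same number, had the highest Fat1 and Dchs1 of their groups. Fjx1 was at 1.07 to 4.13 CPM in controls and 2.59 to 3.72 CPM in mutants (log2 0.62, SE 0.41, edgeR), Fat3 at 4.36 to 22.6 and 6.28 to 13.7 CPM, Cdh4 at 2.85 to 13.9 and 4.10 to 6.55 CPM, and Fat2 at 0.459 to 8.39 and 0.319 to 1.14 CPM. Control E, the shallowest library, had the highest Fat2, Fat3 and Cdh4 of all E11.5 libraries and the lowest Cdh11 among controls.

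Of 9 genes tested at E11.5 in the unpaired fit, 0 passed an adjusted p of 0.05, against 0.0136% of all genes. The study thresholds were passed by 0 of 9, against 3.72%. Libraries did not overlap for 0 of 9, against 1.26% of all genes. Only Cdh11 of the 9 had an unadjusted p under 0.05, as 672 of all genes did, and DESeq2 called none. Without control B, Fat1, Fjx1 and Cdh6 passed the study thresholds (log2 0.66, 1.03 and -1.02), Fat4 did without mutant A (0.74) and Cdh11 without mutant D (-0.60). In these fits 6.41%, 3.94% and 2.67% of all genes passed them. Summed skeletal muscle markers were 115 to 158 CPM in mutants against 26.7 to 100.4 CPM in controls, mesothelium markers 26.3 to 102 against 55.7 to 249.7 CPM and epithelium markers 306 to 715 against 244 to 402 CPM, and the part of cell composition in these differences was not tested.

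Control chondroblasts at E13.5 were set against control tracheas at E11.5, the same libraries as above. Stage and sorting differ together in this comparison and cannot be told apart. Fat4 was higher at E13.5, with 134 and 93.3 CPM against 28.0 to 51.9 CPM (2.85-fold, log2 1.51, SE 0.24, adjusted p = 0.00629, edgeR). Fat1 was at 114 and 132 CPM against 37.6 to 107 CPM (log2 1.01, SE 0.32, adjusted p = 0.0695, edgeR), and Dchs1 at 124 and 92.5 CPM against 36.3 to 102 CPM (log2 0.81, SE 0.31, adjusted p = 0.116), with 1 control trachea inside the later range. Cdh11 was at 474 and 489.7 CPM against 258 to 409 CPM (log2 0.42, SE 0.16, adjusted p = 0.122, edgeR).

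Cdh2 was lower at E13.5, at 101 and 92.7 CPM against 108 to 142 CPM (log2 -0.35, SE 0.17, adjusted p = 0.213, edgeR), and Cdh6 overlapped. Of 9 genes, 1 passed the adjusted threshold, against 12.5% of all genes, and 3 (Fat1, Fat4, Dchs1) passed the study thresholds, against 26.1%. Libraries did not overlap for 4 of 9, against 35.6% of all genes, and the median log2 fold change was 0.00 over the 9 genes and -0.05 over all. Without control B, 4 genes passed the adjusted threshold, Fat1, Fat4, Dchs1 and Cdh6 (adjusted p = 0.00699, 0.0082, 0.0238 and 0.0492, edgeR). In that fit 12.9% of all genes passed it. In a fit of all 18 libraries together Fat4 had an adjusted p of 0.133.

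The other cadherins of the table, a list of 18, were mostly low. Against epithelium 11 were tested, of which 7 passed the filter only through mesenchyme, and 2 were lower in each mesenchymal population at an adjusted p of 0.05, where 2.74% and 3.58% of all genes passed. The 2 were Cdh1 (E-cadherin), at a mean of 562 CPM in epithelium, 0.338 CPM in chondroblasts and 6.54 CPM in muscle, and Cdh16, a cadherin of kidney and other epithelia, at 33.8, 0.0255 and 0.0316 CPM. Cdh2 and Cdh1 were thus present together in the epithelial libraries. In Notum mutants 0 of 10 passed the adjusted test (5 higher, 5 lower), as did 0% of all genes. The smallest unadjusted p there were those of Cdh8 (log2 1.05, SE 0.25, unadjusted p = 0.00491, edgeR) and Cdh15, the cadherin of skeletal muscle precursors (-1.82, SE 0.60). In Wnt5a mutants 0 of 15 passed (10 higher, 5 lower), against 0.0136% of all genes. The smallest unadjusted p there were those of Cdh15 (log2 1.42, SE 0.29, adjusted p = 0.385, edgeR) and Cdh1 (0.74, SE 0.28). Between stages 5 of 14 passed, against 12.5% of all genes: Cdh18 was higher in E13.5 chondroblasts (6.94 against 0.907 CPM), and Cdh1, Cdh3, Cdh16 and Cdh22 were lower.

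Catenins and cadherin anchors, which tie classical cadherins to actin, were a list of 12, of which 11 were tested. Against epithelium 9 of 11 had lower means in each mesenchymal population. The adjusted test was passed by 0 in chondroblasts and 1 in muscle, against 2.74% and 3.58% of all genes. Arvcf, a p120-type catenin, was lower in muscle (44.2 against 203 CPM, log2 -2.20, SE 0.37, adjusted p = 0.0308, edgeR) and was at 59.2 CPM in chondroblasts (log2 -1.80, SE 0.36, adjusted p = 0.064). The median log2 fold change was -0.87 in chondroblasts and -0.88 in muscle, against 0.02 and 0.03 over all genes. The direction counts of this list and the next were not tested. In Notum mutants 10 of 11 had higher means, with a median log2 fold change of 0.44 against 0.02 over all genes. The adjusted test was passed by 0 of them and by 0% of all genes. The smallest unadjusted p were those of Ctnnal1 (log2 0.72, SE 0.18, adjusted p = 0.266) and Arvcf (0.44, SE 0.15, adjusted p = 0.337). In Wnt5a mutants 0 of 11 passed (4 higher, 7 lower), against 0.0136% of all genes. Between stages, where 12.5% of all genes passed, Ctnnal1 was lower at E13.5 (26.2 against 47.2 CPM, adjusted p = 0.0209, edgeR).

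Of 25 Fat-Dachsous partners and Hippo pathway genes, 23 were tested in the sorted cells. The adjusted test against epithelium was passed by 0 of them, where 2.74% (chondroblasts) and 3.58% (muscle) of all genes passed. The median log2 fold change was -0.17 in chondroblasts and 0.06 in muscle, against 0.02 and 0.03 over all genes. The smallest unadjusted p were those of Lix1l, at 15.4 CPM in chondroblasts, 20.9 CPM in muscle and 0.734 CPM in epithelium, of the YAP target Ccn1 in chondroblasts (815 against 2852 CPM) and of Frmd6, an upstream Hippo regulator, in muscle (66.3 against 22.1 CPM). In Notum mutants 16 of 23 had higher means, with a median log2 fold change of 0.15 against 0.02 over all genes. The adjusted test was passed by 0 of the 23 and by 0% of all genes. Tead1, a transcription factor that binds YAP, was at 28.5 against 13.9 CPM (log2 1.05, SE 0.21, adjusted p = 0.243, edgeR), and Lix1, a relative of the fly Fat-binding protein Lowfat, at 24.6 against 13.3 CPM (log2 0.89, SE 0.22, adjusted p = 0.266). In Wnt5a mutants 0 of 25 passed (6 higher, 19 lower), against 0.0136% of all genes, with a median log2 fold change of -0.07 against -0.02 over all genes. Between stages 12.5% of all genes passed. There Wwtr1, which encodes the YAP relative TAZ, was higher at E13.5 (154 against 83.4 CPM, adjusted p = 0.0306, edgeR). Ankrd1 was lower, with 0 counts in chondroblasts against a mean of 3.76 CPM.

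Across all 18 libraries, which span 2 stages, sorted and whole tissue and several genotypes, the genes whose log2 CPM was most like that of Fat4 among 10048 genes with a mean of at least 10 CPM were Pakap (Pearson r = 0.98), Rftn2 (0.97) and Pdzd2 (0.97). For Fat1 they were Tbx3 (0.97), St6gal1 (0.95) and Tns3 (0.95), for Cdh11 Bicc1 (0.96), Gm5563 (0.96) and Gli1 (0.95), and for Cdh2 Senp7 (0.81), Mical3 (0.75) and Tmem127 (0.75). These values describe the libraries, which share tissue groups, and were not tested. A library near 0 CPM can weigh heavily in a Pearson r of log2 CPM. Fat4 and Cdh6, both near 0 in the later epithelial library, had a Pearson r of 0.84 but a rank correlation (Spearman) of 0.09. For Fat4 and Dchs1 these were 0.82 and 0.95.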

How the data were processed

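The authors deposited 1 table of estimated counts (expected counts, 56.0% of the values not whole) for 47248 entries, of which 9286 symbols have several, with 0 blank names. RNA was amplified with SMART-Seq v4 and libraries made with Nextera XT, which does not mark strand. The submitters' notes name mm10, Partek and limma without roles, and the study's methods name DESeq2 and Cufflinks. The aligner and counter are not given in the sources used here. Of 22 value columns 18 matched a group. The other 4 matched no label and were not used, and the labels list more sorted samples than were matched. Sorted columns carry no replicate number of the labels.

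Counts were summed by symbol, rounded and tested with edgeR 4.0.16 (quasi-likelihood, TMM, Benjamini-Hochberg over all genes tested) in R 4.3.3, after dropping genes that nowhere reached 1 CPM in over 50% of a group's libraries. Sorted controls shared 1 fit, and the other comparisons had a fit each. A call was an adjusted p under 0.05, or the study thresholds (unadjusted p under 0.05, fold change over 1.5). Intervals are 95%. The floor is 3 counts, and it and exact intervals cover counting error only. DESeq2 1.42.0, limma 3.58.1, other scalings and filters, a date term, a replicate block and leaving out each library were alternatives, and the edgeR code was tested on simulated data.

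All 10 genes were named in every comparison. From lists of other cadherins, catenins and Hippo genes, at most 6 past the adjusted threshold were named, or where none passed at most 2 of the smallest unadjusted p, and for likeness the 3 highest correlations. Genes and lists were chosen with earlier results of these data known. At E11.5, deviations from group means correlated at 0.192, 0.528, 0.101 and 0.138 between control and mutant of the same column number, all over 0.1. The numbers were therefore used as pairs in the within-pair differences and in the replicate block, which was an alternative fit. The main test at E11.5 was unpaired. Control E and mutant A, of unlike number, correlated at 0.219, and the remaining unlike pairs at -0.322 to 0.067. The rule of 0.1 alone thus does not set pairs of the same number apart. The labels do not say what the number marks. No 2 libraries agreed within sampling noise.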

Additional observations from a re-analysis of the deposited data

Results flagged for a closer look

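Of 20 sets of values examined in the E11.5 groups (10 genes in 5 control and 4 mutant libraries), 4 held a library far from the others. The rule flags about 1 in 20 independent sets by chance, and these sets share the same 9 libraries. Fat1 was at 107.3 CPM in control B, against 37.6 to 54.6 CPM in the other controls. Fat2 was at 1.14 CPM in Wnt5a mutant C, against 0.319 to 0.44 CPM in the other mutants, a level of few counts. Cdh2 was at 126.3 CPM in mutant C, against 93.4 to 97.01 CPM. Cdh6 was at 20.9 CPM in mutant D, against 64.4 to 71.3 CPM in the other mutants.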

How the results depend on the processing

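Counts of genes past the adjusted threshold changed with the test. Against epithelium, chondroblasts went from 2 to 5 under DESeq2, 5 with no filter and 5 in a fit of all 18 libraries, and muscle from 2 to 5, 5 and 6. The share of all genes called rose too, from 2.74% to 11.4%, 7.27% and 19.3% for chondroblasts and from 3.58% to 13.3%, 8.05% and 23.3% for muscle. In Notum mutants the count went from 0 to 4 under DESeq2 and 4 with a date term (3.73% and 18.4% of all genes), and past the study thresholds from 5 to 2 with all 18 libraries. Between stages it went from 1 to 2 under DESeq2, 2 under limma voom and 0 with all 18 libraries (12.5% of all genes, then 23.7%, 11.6% and 10.3%). In the fit of all 18 libraries, 6.07% of all genes passed the study thresholds in Notum mutants, against 8.41% in the main fit. Between chondroblasts and muscle, 1 of the 9 genes passed the study thresholds with all 18 libraries, as did 15.6% of all genes (5.47% in the main fit). With the column number as a replicate block, 1 of the 9 genes passed the study thresholds in Wnt5a mutants, where 0 had without it (2.82% and 3.72% of all genes). None of the 9 passed the adjusted threshold in either fit, where 0.0068% and 0.0136% of all genes did. Sorted columns carry no replicate numbers of the labels, but each control population has 1 library of each date, and with a date term Dchs1 (adjusted p = 0.0419 in chondroblasts and 0.0303 in muscle, edgeR) and Cdh11 (0.015 and 0.011) stayed past the threshold against epithelium.

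Leaving out 1 library moved the adjusted count from 0 to 5 (chondroblasts against epithelium), 1 to 5 (muscle against epithelium), 0 to 4 (Notum) and 1 to 4 (stage), while the share of all genes called ranged from 0.139% to 7.48%, 1.14% to 8.62%, 0% to 17.5% and 5.51% to 22.4%. It moved the study count from 3 to 7, 2 to 7, 3 to 4 and, for Wnt5a, 0 to 3. The share of all genes past the study thresholds moved too. It ranged from 10.3% to 28.4% (chondroblasts against epithelium), 12.3% to 28.7% (muscle against epithelium), 4.86% to 29.0% (Notum) and 2.24% to 6.41% (Wnt5a). Where 1 library was left in a group, that group has no measure of its own spread.

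Small log2 fold changes reversed. Cdh6 in Notum mutants was -0.024 with a date term and -0.017 on the later date alone. In Wnt5a mutants Cdh4 was 0.13 under limma voom and 0.31 with the replicate block, and Fat3 0.23 and 0.42. Cdh4 between stages was -0.028 under DESeq2, -0.022 with its size factors, -0.0035 by library size, -0.013 with at least 10 counts and -0.0027 with all 18 libraries. With 1 library left out, ranges that crossed 0 were, against epithelium, -0.21 to 0.0076 (Cdh2) and -1.58 to 0.55 (Fjx1) in chondroblasts and -0.30 to 0.46 (Cdh2) in muscle. Between chondroblasts and muscle they were -0.00038 to 0.19 (Cdh11), -0.57 to 0.18 (Cdh2), -1.48 to 0.55 (Cdh4), -0.39 to 0.27 (Cdh6), -0.45 to 0.13 (Dchs1), -0.37 to 0.082 (Fat1) and -0.073 to 1.78 (Fat3). They were -0.017 to 0.49 for Cdh6 in Notum mutants, -0.51 to 0.29 (Cdh4), -0.018 to 0.43 (Dchs1) and -0.32 to 0.39 (Fat3) in Wnt5a mutants, and -1.08 to 0.60 for Cdh4 between stages. The cause of these changes was not tested. Groups of 2 sorted libraries, with a biological coefficient of variation of 66.8% in their fit, limit what could be called. Fat2 (0 to 58 counts) and Fjx1 (11 to 170) rest on few counts, as do Fat3 in sorted cells (0 to 99) and Cdh4 in Notum mutants (26 to 43).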
